A study of Mus musculus with 17 samples.

Results

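The Hox genes of the mouse lie in 4 clusters, Hoxa, Hoxb, Hoxc and Hoxd, and encode transcription factors with a homeobox, the DNA-binding part they share. All genes in the count tables whose symbol is Hoxa, Hoxb, Hoxc or Hoxd followed only by a number were taken as members. That rule gave 39 of the 24015 genes listed, with 11 in Hoxa, 10 in Hoxb, 9 in Hoxc and 9 in Hoxd. The rule uses the symbol only. Messenger RNA was sequenced from cells of CD-1 mice. Mouse embryonic fibroblasts (MEF), connective tissue cells of the embryo, were the labelled controls and were passaged 3 times in MEF medium and gave 3 libraries. XEN cells, stem cell lines of the extraembryonic endoderm from which the yolk sac linings form, were sequenced as 3 libraries from each of 2 media, embryonic stem cell (ESC) medium and XEN medium. iXEN cells (induced XEN) are lines of the same label type that the series' title describes as induced with OSKM, the reprogramming factors Pou5f1, Sox2, Klf4 and Myc, and they gave 4 libraries in each medium. Both kinds of line had 10 passages in ESC medium and then 5 more in either medium. A library's name here joins its cell type, its medium and its title number, and the labels do not say whether a number stands for 1 line, clone or culture.

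The number in a Hox gene's name is its paralog group, shared by the genes at the same place in each cluster. Low numbers lie toward the 3′ end of a cluster and act toward the head of the embryo, and high numbers lie toward the 5′ end and act in the trunk, tail and outer limb. Fibroblasts are known to keep the Hox genes of the place in the body from which they came. In the early embryo, and in lineages outside the body axis, Polycomb proteins are known to hold the clusters silent.

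Promoter sequences were taken from RefSeq (build GRCm38.p6), which is another build than the mm9 of the counts. The table at hand held 24 promoters of 22 of the 39 members. The 250 bases before the start had a median of 12.5 CG pairs in these 24 promoters (range 2 to 35), against 6 (0 to 56) in all 32851 promoters of the table. The median GC content was 58.6% against 52.4%. Both strands were searched for 3 short motifs. GATAA, the core bound by GATA factors, stood in 5 of 24 promoters (20.8%) against 22.6% of all. AGGTCA, the core of a nuclear receptor site, stood in 6 of 24 (25%) against 14%. TGATTGAT, a composite site of Pbx and Hox proteins, stood in 2 of 24, those of Hoxa2 and Hoxd11 (8.33%), against 0.67%. A match describes these letters only. The promoters of 3 members are printed because their transcripts behaved differently in the XEN and iXEN libraries described below. Hoxb4 overlapped its MEF level in every group, and Hoxd9 and Hoxd10 are neighbours of which the first was above MEF and the second near 0 in 1 iXEN library. Each runs 5′ to 3′ on the + strand with CG pairs in capitals. The windows are chr11:96318017-96318266 for Hoxb4 (14 CG pairs, 58% GC), chr2:74697513-74697762 for Hoxd9 (13 CG pairs, 65.2% GC) and chr2:74691641-74691890 for Hoxd10 (20 CG pairs, 65.6% GC).
Hoxb4: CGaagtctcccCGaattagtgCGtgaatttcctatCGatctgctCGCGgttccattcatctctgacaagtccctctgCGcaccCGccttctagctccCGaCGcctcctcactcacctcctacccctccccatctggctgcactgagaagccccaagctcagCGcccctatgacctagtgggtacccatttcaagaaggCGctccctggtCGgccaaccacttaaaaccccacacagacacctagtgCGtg
Hoxd9: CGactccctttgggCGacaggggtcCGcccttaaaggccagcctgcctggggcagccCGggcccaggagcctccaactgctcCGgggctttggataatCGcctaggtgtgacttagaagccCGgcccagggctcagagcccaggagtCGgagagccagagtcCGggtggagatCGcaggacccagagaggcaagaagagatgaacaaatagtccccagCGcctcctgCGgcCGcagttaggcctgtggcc
Hoxd10: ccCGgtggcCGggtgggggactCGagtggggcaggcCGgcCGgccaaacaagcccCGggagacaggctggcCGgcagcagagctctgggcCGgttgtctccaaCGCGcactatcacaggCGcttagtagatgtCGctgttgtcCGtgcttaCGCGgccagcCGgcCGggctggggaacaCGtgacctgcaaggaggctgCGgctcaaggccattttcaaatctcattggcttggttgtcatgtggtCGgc
All 3 windows hold more CG pairs than the median promoter of the table. AGGTCA was found once in the Hoxb4 and Hoxd10 windows and GATAA once in the Hoxd9 window.

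The libraries held 20071567 to 45914262 counts in genes (n = 17), so that 3 counts corresponded to 0.0653 to 0.149 CPM (counts relative to the library's total) before scaling between libraries. CPM are not scaled to gene length, so each gene is compared with its own level elsewhere and not with other genes. Some libraries stood apart from the rest of their group. The 13 fibroblast markers, collagens, Thy1, Twist1 and others, summed to 39388 to 54430 CPM in MEF. XEN ESC medium 1 held 17.6% of the MEF mean, with 13 of 13 markers at 1 CPM or more. iXEN XEN medium 2 held 5.2% (12 of 13) and iXEN XEN medium 9 held 2.49% (8 of 13). XEN ESC medium 2 held 0.751% (6 of 13), and the other 10 XEN and iXEN libraries 0.0345% to 0.107% (2 to 6 of 13). In iXEN XEN medium 9 the fibroblast markers Lum and Fap had 0 counts and Postn was at 0.0579 CPM, while Col1a1 was at 391 CPM. The same library held 110 CPM of 9 pluripotency markers, against 4.08 to 28.1 in the other 13, nearly all of it Pou5f1 and Sox2, and 3 of the 9 had 0 counts there. The 12 XEN markers, with Gata4, Gata6 and Sox17, were all at 1 CPM or more in 12 of the 14 XEN and iXEN libraries. In both XEN 7 libraries 11 of 12 were, and in MEF 6 or 7. Summed, they came to only 137% and 199% of the MEF mean in XEN 7 of ESC and XEN medium. The other XEN and iXEN libraries held 290% to 1523%. All 9 macrophage markers were at 1 CPM or more in the 3 MEF libraries and 1 or 2 of them in each of the others. In RNA from whole cultures, fewer cells of a type and less RNA per cell cannot be told apart.

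MEF expressed most of the members. Of the 39, 32 reached 1 CPM in all 3 MEF libraries, and 5 stayed under 1 CPM in all 3 (Hoxb1, Hoxb13, Hoxc12, Hoxc13 and Hoxd1). Summed over the 39 genes, the level was 312, 356 and 387 CPM, and each cluster gave a like part of it: 101 ± 20.8 CPM for Hoxa, 81.6 ± 11 for Hoxb, 87.0 ± 18 for Hoxc and 81.6 ± 32.2 for Hoxd (SD, n = 3). The wide spread of Hoxd came from its 5′ end. Hoxd10 to Hoxd13 together gave 30.7 and 32.6 CPM in MEF 1 and 2 and 88.2 in MEF 3, while Hoxd8 and Hoxd9 together gave 22.1 ± 0.676 CPM (SD, n = 3).

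The XEN and iXEN libraries held far less Hox RNA, with 1 exception. The sum was 87.3, 31.8 and 81.2 CPM in XEN ESC medium 1, 2 and 7, and 70.7, 29.3 and 86.0 in XEN medium. iXEN ESC medium 1, 2, 6 and 9 gave 40.4, 18.7, 22.7 and 41.9 CPM. iXEN XEN medium 1, 2 and 6 gave 53.2, 80.6 and 28.2, and iXEN XEN medium 9 gave 312, inside the MEF range. As group means these were 66.8 ± 30.4 CPM (19.0% of MEF) for XEN and 30.9 ± 11.9 (8.79%) for iXEN in ESC medium. In XEN medium they were 62.0 ± 29.3 (17.6%) for XEN and 119 ± 131 (33.7%) for iXEN (SD, n = 3 for MEF and XEN, n = 4 for iXEN). Without library 9 the last mean was 54.0 ± 26.2 CPM, or 15.4% of MEF (n = 3). The number of members at 1 CPM or more was 33 or 34 in MEF, 22, 10 and 14 in XEN ESC medium 1, 2 and 7, and 10, 6 and 14 in XEN XEN medium 1, 2 and 7. The iXEN libraries of ESC medium had 7 to 9. The number was 7, 14 and 6 in iXEN XEN medium 1, 2 and 6, and 27 in library 9.

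**Figure D1:**
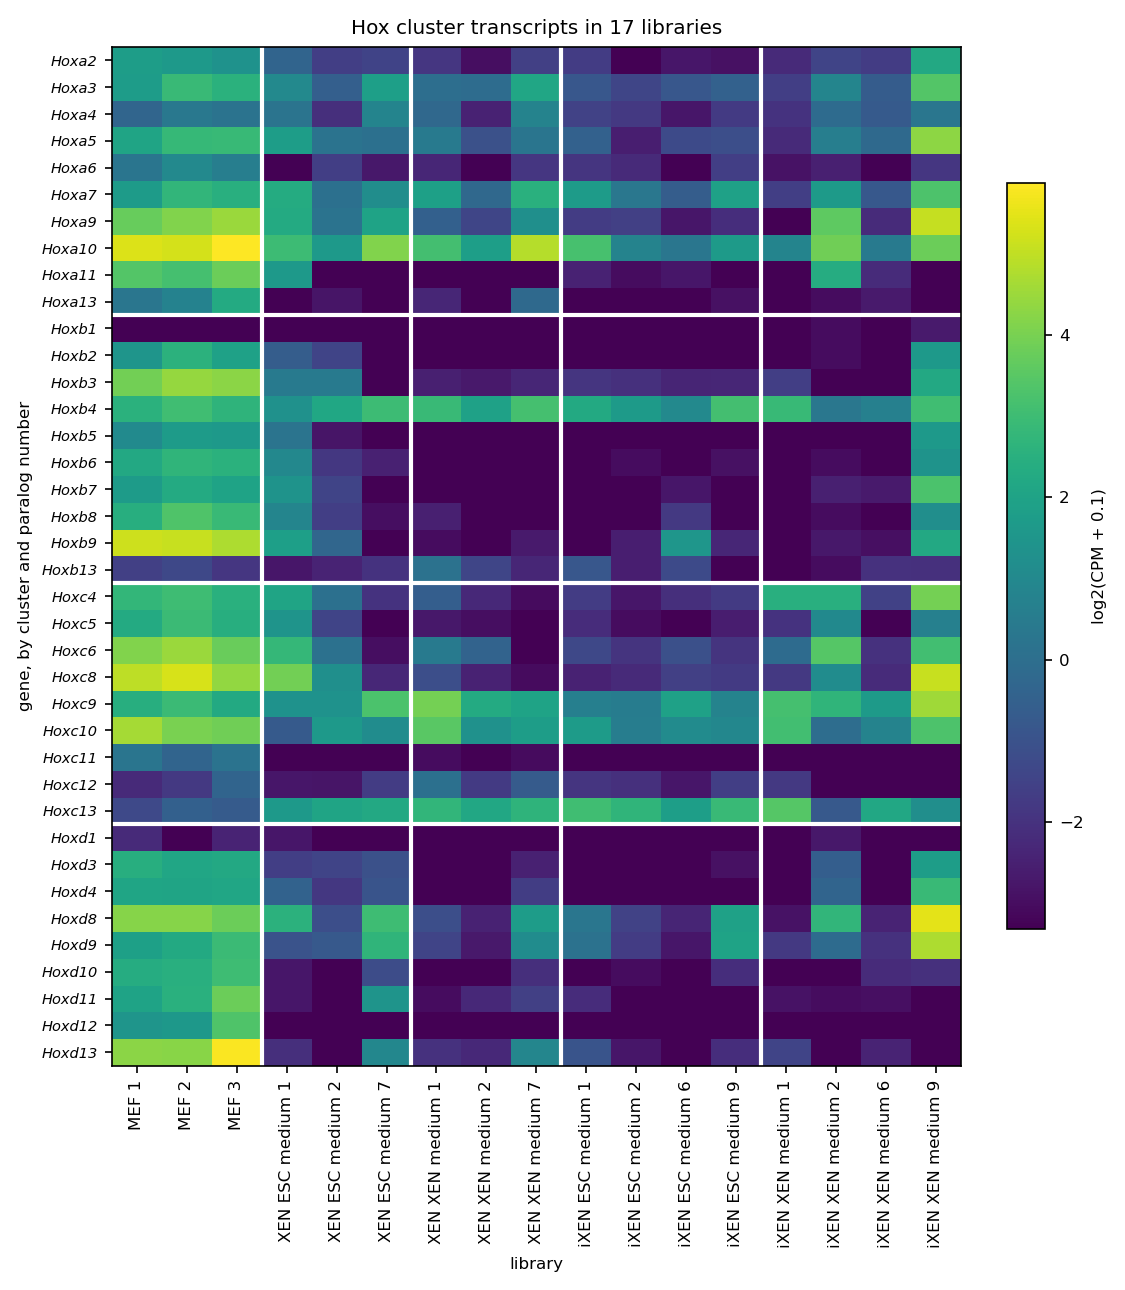
Level of 38 of the 39 Hox genes, rows by cluster and paralog number, in the 17 libraries, columns by cell type, medium and title number; colour is log2(CPM + 0.1), and white lines part the clusters and groups. The 3 MEF columns are filled in all 4 clusters, while most XEN and iXEN columns keep a few rows, among them Hoxb4, Hoxc9 and Hoxc13, and iXEN XEN medium 9 is filled in most rows down to Hoxd9.

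**Figure D2:**
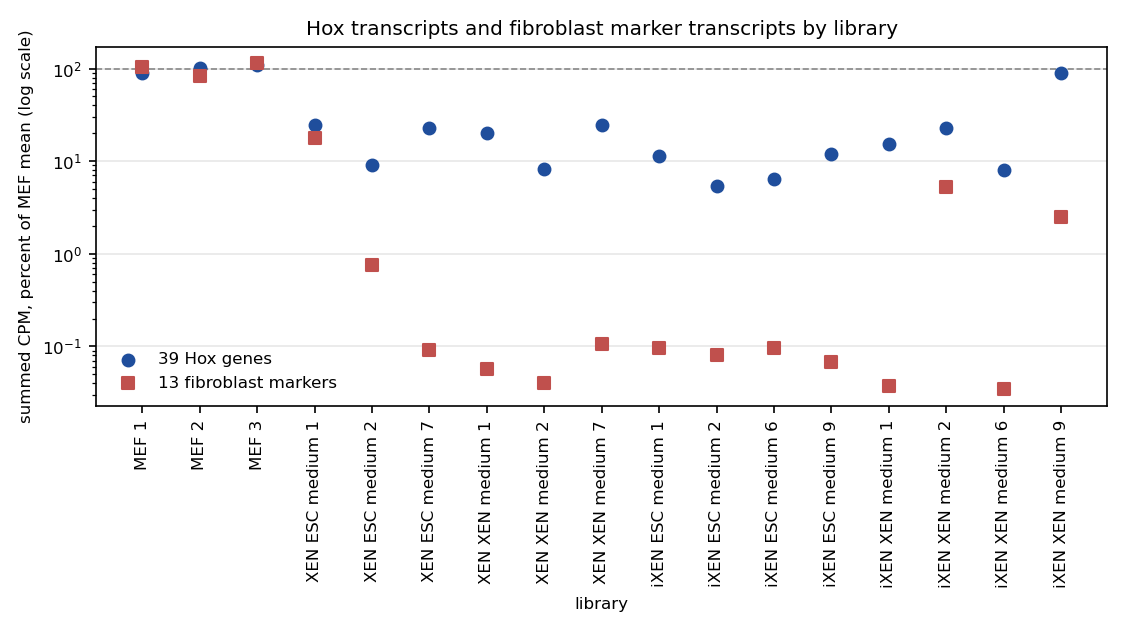
Summed CPM of the 39 Hox genes (circles) and of 13 fibroblast markers (squares) in each library, as percent of the MEF mean on a log scale. Hox sums lie between 5.33% and 24.8% of MEF in 13 of 14 XEN and iXEN libraries and at 88.7% in iXEN XEN medium 9, whereas the marker sums run from 0.0345% to 17.6%.

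In ESC medium, iXEN cells held fewer Hox transcripts than MEF in all 4 clusters. Of 35 members tested with edgeR (quasi-likelihood test, Benjamini-Hochberg adjustment over all genes, called under 0.05), 30 were lower and 1, Hoxc13, was higher. Of all 14352 genes tested, 25.9% were called lower and 20.8% higher. The lower calls were 9 of 11 tested in Hoxa, 7 of 8 in Hoxb, 7 of 8 in Hoxc and 7 of 8 in Hoxd. Hoxa7, Hoxb4 and Hoxd9 were among those not called, and Hoxb1, Hoxb13, Hoxc12 and Hoxd1 had too few counts to be tested. The median log2 fold change was -6.68 (-6.16 with genes at 0 counts set at their bound), against 0.03 over all genes. Of the 35, 27 passed the count filter through MEF alone, and so did 26 of the 30 called lower. In such genes the filter itself makes a lower level likely, so the count is a description of these libraries. In CPM 30 members lay below all MEF libraries in all iXEN libraries, as did 31.3% of all genes tested. In every comparison with MEF, cell type changes along with medium and passage number, and the 3 cannot be told apart.

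Hoxc8, a gene of the thoracic trunk, stood at 31.2, 39.2 and 20.9 CPM in MEF and at 0.084, 0.116, 0.231 and 0.196 CPM in iXEN ESC medium 1, 2, 6 and 9. The highest iXEN value lay far below the lowest MEF value, and the log2 fold change was -7.56 (SE 0.43, edgeR adjusted p = 4.34e-06). Hoxb3, a hindbrain and neck gene, was at 14.8, 21.3 and 19.5 CPM in MEF and 0.168, 0.139, 0.0922 and 0.098 in the same iXEN libraries (log2 fold change -7.13, SE 0.37, adjusted p = 2.67e-06). Hoxa9, a posterior gene also known from blood stem cells and leukaemia, was at 13.1, 17.4 and 22.4 CPM in MEF and 0.0461 to 0.232 in the 4 iXEN libraries (log2 fold change -6.71, SE 0.49, adjusted p = 1.66e-05). These 3 genes come from 3 clusters and 3 paralog groups, and in each the groups lay far apart. All 3 were named for a high level in MEF and passed the count filter through MEF alone. A lower level in iXEN was thus likely from the choice, and the values describe these libraries.

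Hoxa11 and Hoxd13, of higher paralog number, were also far below MEF, whereas Hoxc13 was higher than MEF. Hoxa11, needed for the forearm and the uterus and named after its values were seen, was at 10.6, 8.80 and 13.8 CPM in MEF and at 0.084, 0.0232, 0.0461 and 0 in iXEN ESC medium 1, 2, 6 and 9 (log2 fold change -8.13, SE 0.64, adjusted p = 2.45e-05). Hoxd13, which patterns the digits, was at 19.0, 18.7 and 56.3 CPM in MEF and at 0.42, 0.0465, 0 and 0.131 in iXEN (log2 fold change -7.72, SE 0.90, adjusted p = 0.000214). The MEF libraries themselves differed, with MEF 3 high for Hoxd13, but none came near the iXEN range. Several genes had no count in any iXEN library of ESC medium. With 3 counts over the group as the floor, Hoxd12 was at least 222-fold lower, Hoxd4 at least 164-fold, Hoxb2 at least 163-fold, Hoxb5 at least 109-fold and Hoxc11 at least 37.3-fold, counting error only. Hoxa13, the most posterior Hoxa gene, had 1 count in iXEN and 233 in MEF, a ratio of 322 (95% counting interval 57.1 to 12753).

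Other members were lower without being near 0. Hoxa10 was at 41.7, 38.3 and 58.4 CPM in MEF and at 8.99, 1.63, 1.11 and 3.14 in iXEN ESC medium 1, 2, 6 and 9 (log2 fold change -3.60, SE 0.68, edgeR adjusted p = 0.00271). Hoxc10, like Hoxa10 a gene of the hindlimb level, was at 24.8, 16.2 and 14.7 CPM in MEF and 3.19, 1.39, 2.08 and 1.83 in iXEN (log2 fold change -3.09, SE 0.37, adjusted p = 0.000248). Hoxc9 differed less, with 5.34, 7.53 and 4.74 CPM in MEF and 1.47, 1.35, 3.74 and 1.63 in iXEN (log2 fold change -1.48, SE 0.45, adjusted p = 0.0265). The groups did not overlap for any of the 3. The Hoxc9 call was lost without any 1 of the MEF libraries or without iXEN 1, 2 or 9 (adjusted p 0.0537 to 0.107).

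Within a cluster, iXEN libraries of ESC medium did not all keep the same remainder. Hoxd8 was at 18.3, 18.2 and 14 CPM in MEF and at 1.13, 0.256, 0.0922 and 3.72 in iXEN ESC medium 1, 2, 6 and 9 (log2 fold change -3.65, SE 0.97, edgeR adjusted p = 0.0145). Hoxd9 was at 3.60, 4.74 and 7.63 CPM in MEF and at 1.01, 0.209, 0.0461 and 3.95 in iXEN, so that library 9 lay within the MEF range and the gene was not called. Both genes were highest in library 9 and lowest in library 6. Hoxb9, the most 5′ gene of the main Hoxb run, was at 35.7, 34.2 and 26.8 CPM in MEF, at 2.72 in iXEN ESC medium 6 and at 0 to 0.098 in the other 3 (log2 fold change -5.51, SE 1.32, adjusted p = 0.00902). Library 6, low for Hoxd8 and Hoxd9, was thus the only 1 of these 4 with Hoxb9 above 1 CPM.

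**Figure D3:**
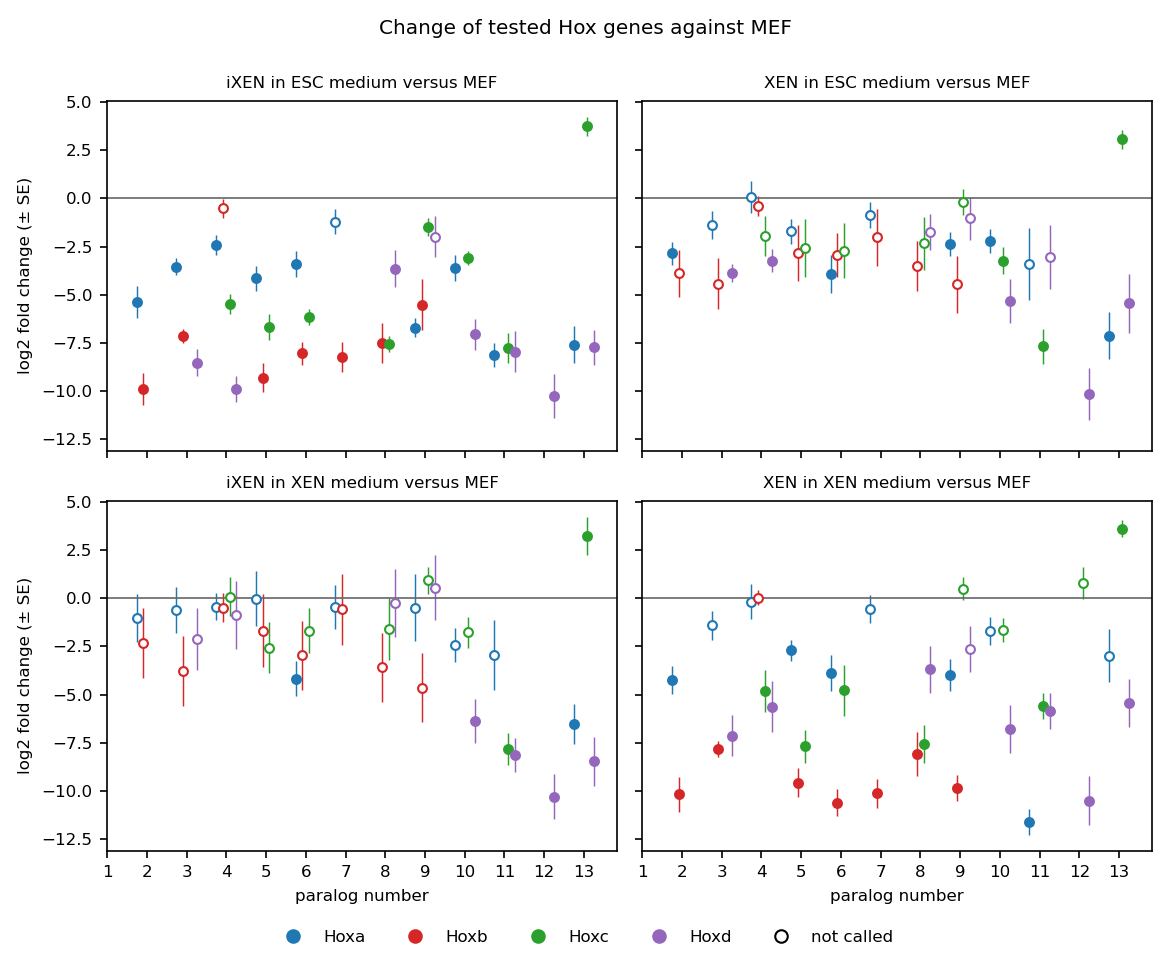
Log2 fold change against MEF (points, with SE as bars) of the tested Hox genes by paralog number, without 1 gene, in 4 comparisons that share the MEF libraries; colours are clusters, filled points were called by edgeR and open points were not. Points of genes with 0 counts on the XEN or iXEN side depend on the prior count. In the upper left panel 31 of 34 points are filled, with Hoxc13 the filled point above 0.

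XEN cells in XEN medium also held less Hox RNA than MEF. Of 36 members tested 24 were lower and 2, Hoxc13 among them, were higher, where 24.5% and 23% of all 14390 genes were called lower and higher. Of the 36, 26 passed the filter through MEF alone, 23 of them among the lower calls. The median log2 fold change was -4.79 against 0.02 over all genes. In CPM 28 members lay below all MEF libraries, as did 34.8% of all genes tested. In XEN XEN medium 1, 2 and 7 the Hoxd cluster summed to 0.991%, 0.438% and 9.61% of MEF and the Hoxb cluster to 10.5%, 4.95% and 11%, with 7 of 8 tested members lower in each. Hoxb2, Hoxb5, Hoxb6 and Hoxb7 had no count in any of the 3 libraries and were at least 175-fold, 117-fold, 238-fold and 169-fold lower than MEF, counting error only. Hoxb9 was at 0.0245, 0 and 0.0589 CPM in XEN XEN medium 1, 2 and 7 against 26.8 to 35.7 in MEF (log2 fold change -9.85, SE 0.67, edgeR adjusted p = 0.000318). Hoxb3 was at 0.0735, 0.055 and 0.0982 CPM (log2 fold change -7.81, SE 0.41, adjusted p = 0.00015). Hoxa11, at 8.80 to 13.8 CPM in MEF, also had no count, a difference of at least 484-fold.

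Hoxa9 was less far from MEF in these libraries, at 0.612, 0.275 and 2.32 CPM (log2 fold change -3.98, SE 0.83, edgeR adjusted p = 0.0104). Hoxc8 was at 0.367, 0.0825 and 0.0196 CPM (log2 fold change -7.56, SE 0.98, adjusted p = 0.0021). XEN 7 was the highest of the 3 for Hoxa9 and the lowest for Hoxc8. Hoxd8 was at 0.367, 0.0825 and 3.28 CPM (log2 fold change -3.69, SE 1.22, adjusted p = 0.0465), and its call was lost without any 1 of the MEF libraries or without XEN 1 or 2 (adjusted p 0.0501 to 0.111). Hoxd13 was at 0.147, 0.11 and 1.77 CPM (log2 fold change -5.45, SE 1.25, adjusted p = 0.0144), with adjusted p = 0.0537 without MEF 3. XEN 7 was the highest of the 3 for both Hoxd genes.

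In ESC medium the XEN libraries differed more among themselves. Of 35 members tested 12 were lower and 1, Hoxc13, was higher, where 13.7% and 11.4% of all 14001 genes were called. The median log2 fold change was -2.84 against -0.03 over all genes. Of the 35, 24 passed the filter through MEF alone, 9 of them among the 12 lower calls. The 12 were Hoxa2, Hoxa6, Hoxa9, Hoxa10, Hoxa13, Hoxc10, Hoxc11, Hoxd3, Hoxd4, Hoxd10, Hoxd12 and Hoxd13, with none from Hoxb. In CPM 27 members lay below all MEF libraries, 7 of them in Hoxb, as did 31.7% of all genes tested. XEN ESC medium 1, the library with 17.6% of the MEF fibroblast marker level, held 16.7% of the MEF level of Hoxb2 to Hoxb9 without Hoxb4 and 46.8% of that of Hoxc4 to Hoxc8. XEN ESC medium 2 held 4.02% and 7.36%, and XEN ESC medium 7 held 0.14% and 0.472%. Without XEN ESC medium 1, 20 members were called, 19 of them lower. The shares of all genes above belong to the fit with this library, so the rise to 20 is no result about the members alone. The part of the fibroblast transcripts of XEN ESC medium 1 in the Hox levels was not tested. Without MEF 1, 2 or 3 the number called was 0, 1 or 2.

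Hoxa9 was at 4.77, 1.03 and 3.91 CPM in XEN ESC medium 1, 2 and 7 (log2 fold change -2.37, SE 0.63, edgeR adjusted p = 0.0387). Hoxa10 was at 7.71, 3.04 and 17.3 CPM (log2 fold change -2.22, SE 0.64, adjusted p = 0.0491), and Hoxc10 at 0.505, 3.04 and 2.11 CPM (log2 fold change -3.23, SE 0.69, adjusted p = 0.0217). All 3 genes lay below the lowest MEF library in each XEN library. Their calls were lost without any 1 of the MEF libraries. That of Hoxa9 was also lost without XEN 7 (adjusted p = 0.0546), and that of Hoxa10 without XEN 1 (0.109) or under RLE scaling (0.0555). Hoxd13 was at 0.138, 0 and 1.80 CPM (log2 fold change -5.44, SE 1.52, adjusted p = 0.0446), a call likewise lost without any 1 of the MEF libraries or without XEN 1 (adjusted p 0.0846 to 0.152).

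A set of 6 members was still found in nearly all XEN and iXEN libraries, and Hoxc13 among them was named after its values were seen. Hoxa10, Hoxb4 and Hoxc9 were at 1 CPM or more in all 14 XEN and iXEN libraries. Hoxc13 was in 13 of 14 and Hoxc10 in 12 of 14. The libraries below 1 CPM were XEN ESC medium 1 for Hoxc10 and iXEN XEN medium 2 for both, the pair with the highest fibroblast marker levels. At the other end, 8 members reached 1 CPM in none of the 14, and Hoxd12 had 0 counts in all of them.

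Hoxb4, known for a role in blood stem cells, overlapped its MEF level in every group. It was at 5.77, 8.09 and 6.21 CPM in MEF, at 2.43, 4.30 and 7.83 in XEN ESC medium 1, 2 and 7, and at 7.42, 3.71 and 8.74 in XEN XEN medium. In iXEN 1, 2, 6 and 9 the ESC medium values were 4.70, 3.09, 1.89 and 8.56 CPM and those of XEN medium 7.18, 1.16, 1.5 and 8.20. No group lay wholly below or above MEF. The log2 fold changes against MEF were -0.52 (95% interval -1.65 to 0.60) and -0.39 (-1.65 to 0.87) for iXEN and XEN in ESC medium. They were -0.50 (-2.23 to 1.23) and 0.03 (-0.95 to 1.01) in XEN medium. The intervals allow a change of about the size of the spread between libraries, and none was called. Its Hoxb neighbours were lower: the other 7 genes from Hoxb2 to Hoxb9 summed to 0.0736% to 0.311% of the MEF level in 10 of the 14 libraries. They came to 39.5% in iXEN XEN medium 9, 16.7% in XEN ESC medium 1, 4.08% in iXEN ESC medium 6 and 4.02% in XEN ESC medium 2. Hoxb3 lies over Hoxb4 in the annotation, so that reads could be split between them, and how the counting treated strand is not stated in any source used here.

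Hoxc13, a gene of hair and nail, was low in MEF and higher in the lines. It was at 0.31, 0.602 and 0.53 CPM in MEF, at 3.03, 3.98 and 4.54 in XEN ESC medium 1, 2 and 7, and at 6.46, 4.51 and 6.20 in XEN medium. iXEN 1, 2, 6 and 9 gave 8.10, 6.34, 3.46 and 7.32 CPM in ESC medium, and 10.7, 0.492, 4.51 and 2.23 after XEN medium. All but iXEN XEN medium 2 lay above the highest MEF library. The log2 fold change was 3.73 (SE 0.47, edgeR adjusted p = 0.000329) for iXEN and 3.05 (SE 0.50, adjusted p = 0.0114) for XEN in ESC medium. In XEN medium it was 3.24 (SE 1, adjusted p = 0.0429) and 3.61 (SE 0.44, adjusted p = 0.00173). The 4 values share the MEF libraries. The call for iXEN in XEN medium was lost without any 1 of the MEF libraries or without iXEN 1 or 6 (adjusted p 0.059 to 0.15), and that for XEN in ESC medium without any 1 of the MEF libraries (0.0608 to 0.0723).

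**Figure D4:**
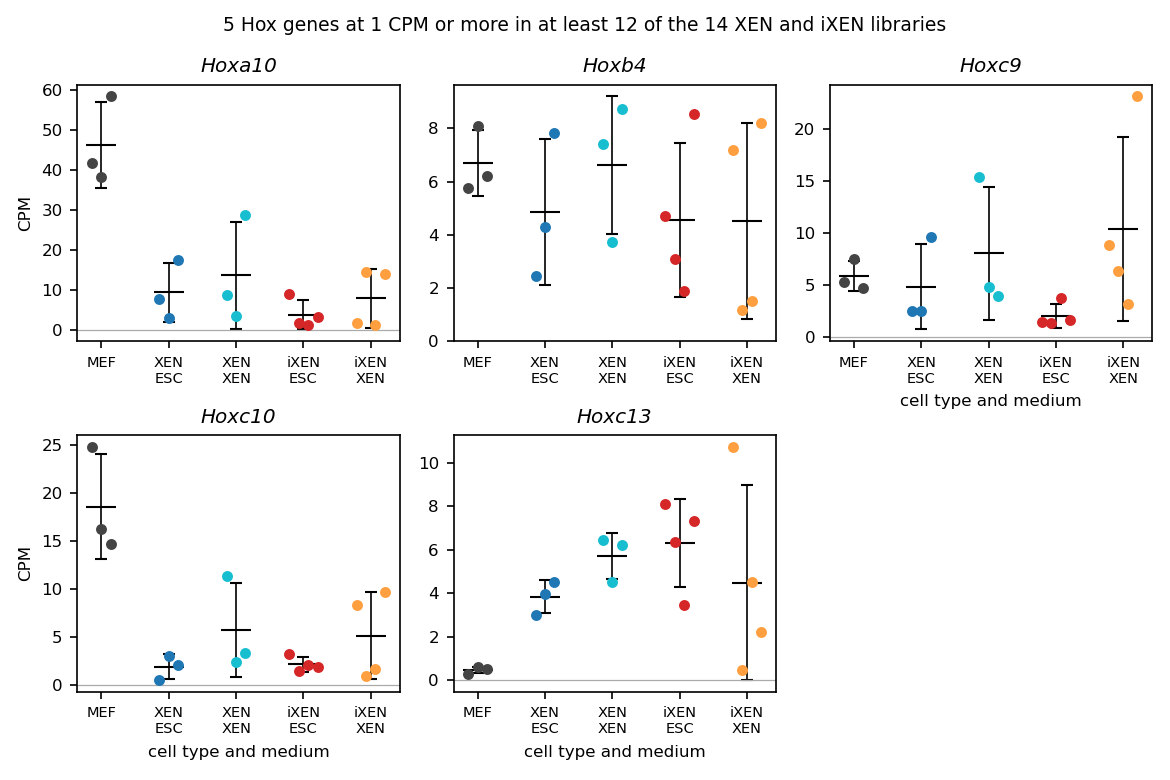
CPM of 5 Hox genes found at 1 CPM or more in at least 12 of the 14 XEN and iXEN libraries (points, 1 per library) by cell type and medium, with mean and SD as bars. Hoxb4 overlaps MEF in each group, Hoxc13 lies mostly above MEF, and Hoxa10 and Hoxc10 mostly below it.

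iXEN cells in XEN medium gave the widest spread. Of 35 members tested 7 were lower (Hoxa6, Hoxa13, Hoxc11 and Hoxd10 to Hoxd13) and 2, Hoxc13 among them, were higher, where 14.9% and 17.7% of all 14438 genes were called. The median log2 fold change was -1.69 against 0.06 over all genes. In CPM 17 members lay below all MEF libraries, as did 29% of all genes tested. All 7 lower calls passed the filter through MEF alone, as did 23 of the 35 members. Without iXEN XEN medium 9, the library with the highest Hox sum of the group, 20 members were called. Without the 3 libraries with the most fibroblast marker RNA the number was 30, with 28 lower and 2 higher. That choice was made after the data were seen, and here it removes iXEN XEN medium 2 and 9 and leaves iXEN 1 and 6. The shares of all genes above belong to the fit with all libraries, so neither number is a result about the members alone.

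Library 9 in XEN medium held Hox RNA near the MEF level in the sums of 3 clusters and below it in Hoxb. Its sums were 97.8 CPM for Hoxa (96.4% of MEF), 37.9 for Hoxb (46.4%), 94.2 for Hoxc (108%) and 82.1 for Hoxd (101%). Single members ranged widely, with Hoxa6 at 11.7% of MEF, Hoxb9 at 14.2%, Hoxb3 at 25% and Hoxa10 at 30.4%. It was the highest of the 14 XEN and iXEN libraries for 20 members and above all 3 MEF libraries for 15. Among these, Hoxa9 was at 33.2 CPM against 13.1 to 22.4 in MEF, Hoxb7 at 9.47 against 3.17 to 4.78, and Hoxc9 at 23.2 against 4.74 to 7.53. Hoxa2, Hoxb2, Hoxd3 and Hoxd4 reached 1 CPM there and in no other of the 14 libraries. The library numbered 9 in ESC medium was far lower for Hoxa9 (0.131 CPM), Hoxb7 (0) and Hoxc9 (1.63). It was the highest of its group for Hoxd8 (3.72 CPM) and Hoxd9 (3.95), with Hoxd10 at 0.131.

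In Hoxd the levels dropped between Hoxd9 and Hoxd10, the genes whose promoters are printed above. Hoxd8 was at 44.5 CPM in this library (14 to 18.3 in MEF) and Hoxd9 at 26.7 (3.60 to 7.63 in MEF), and together they came to 322% of the MEF level. Hoxd10, next to Hoxd9 and named after its values were seen, was at 0.145 CPM against 5.11 to 8.04 in MEF, and Hoxd11, Hoxd12 and Hoxd13 were at 0. The 4 genes from Hoxd10 to Hoxd13 came to 0.287% of MEF. In this library 7 members that reached 1 CPM in all MEF libraries were under 1 CPM in library 9: Hoxa6, Hoxa11, Hoxa13 and Hoxd10 to Hoxd13. In Hoxa the levels passed from 33.2 CPM for Hoxa9 and 14 for Hoxa10 to 0 for Hoxa11 and Hoxa13. In Hoxc, Hoxc10 was at 9.67 CPM (14.7 to 24.8 in MEF) and Hoxc11 at 0 (0.677 to 1.08).

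The fibroblast markers of library 9 were at 2.49% of MEF, while its Hox sum was at 88.7%. iXEN XEN medium 2, with a higher marker level of 5.2%, had a Hox sum of 22.9% of MEF. Library 2 held Hoxa11 (5.09 CPM) and the limb gene Shox2 (9.32 CPM, 12.7 to 15.7 in MEF), both at 0 in library 9. Of the 9 pluripotency markers, 4 were at 1 CPM or more in library 9. Pou5f1 was at 58.4 CPM (0.157 to 8.99 in the other 13 XEN and iXEN libraries) and Sox2 at 48.2 (0 to 7.25), both of them OSKM factors, while Zfp42 was at 1.36 (0.496 to 25.6). Crabp1, a retinoic acid binding protein, was at 330 CPM in library 9 and 124 in library 2, against 187 to 221 in MEF and 0.055 to 22.3 in the other 12. The part of these transcripts in the Hox levels was not tested. The drop after Hoxd9 was not particular to library 9. Hoxd8 and Hoxd9 came to 34.7% of MEF in iXEN ESC medium 9, 33.6% in iXEN XEN medium 2 and 28.2% in XEN ESC medium 1. Hoxd10 to Hoxd13 came to 0.517%, 0.0487% and 0.454% in the same libraries. No other XEN or iXEN library held Hox RNA at the levels of library 9, so those levels rest on 1 sample.

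**Figure D5:**
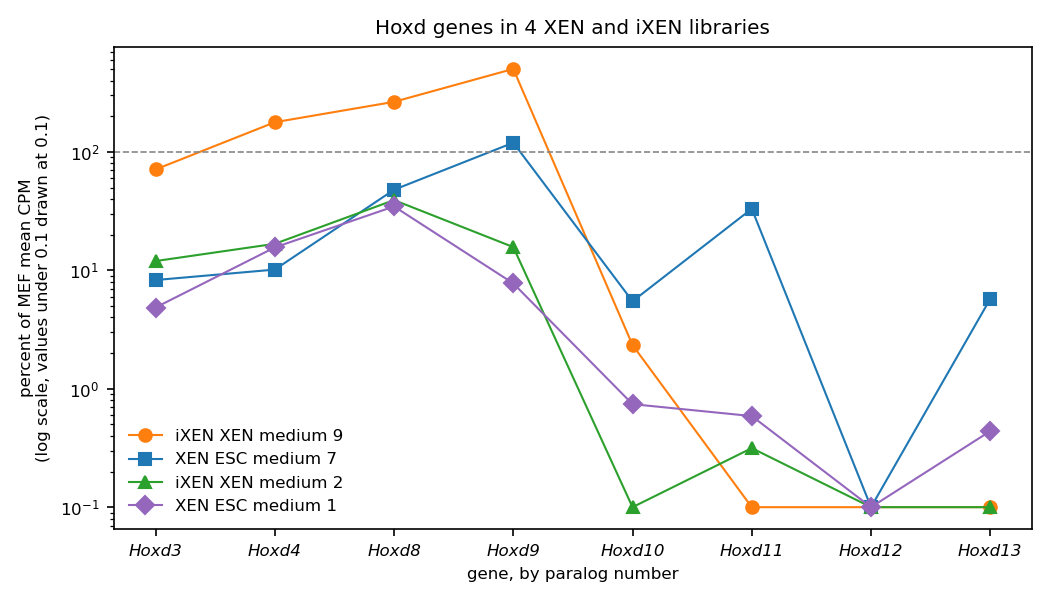
Level of the 8 Hoxd genes other than Hoxd1 in 4 libraries, as percent of the mean MEF CPM on a log scale, with values under 0.1 drawn at 0.1 and the dashed line at the MEF mean. iXEN XEN medium 9 lies above 100% for Hoxd4, Hoxd8 and Hoxd9 and at 2.34% or less from Hoxd10 on, and XEN ESC medium 7 reaches 120% at Hoxd9.

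The XEN 7 libraries held part of the Hoxd cluster in both media. Hoxd9 was at 6.37 CPM in ESC medium and 2.12 in XEN medium, against 0.055 to 0.493 in XEN 1 and 2. Hoxd8 and Hoxd9 together came to 65.1% of MEF in ESC medium and 24.4% in XEN medium. That sum was also above 24.4% in XEN ESC medium 1, at 28.2% with Hoxd8 at 5.83 CPM, in the iXEN library numbered 9 of ESC medium, at 34.7%, and in numbers 2 and 9 of iXEN in XEN medium, at 33.6% and 322%. Hoxd10 to Hoxd13 came to 9.35% and 4.24% in the XEN 7 libraries. No other XEN or iXEN library held more than 1.08% of the MEF level of Hoxd10 to Hoxd13. Hoxd11 was at 2.58 CPM in XEN ESC medium 7, while Hoxd12 had no count. The fibroblast markers of both XEN 7 libraries were at 0.0910% and 0.107% of MEF. Cdx2, a caudal homeobox gene that acts upstream of Hox genes in the embryo, had no count in MEF and was at 3.34 and 5.97 CPM in XEN 7. It was also at 2.34 CPM in XEN XEN medium 2, whose Hoxd9 was at 0.055 CPM, and at 0.738 CPM or less in the other 11 XEN and iXEN libraries.

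Hoxd10 was low in all 4 groups of XEN and iXEN libraries. Beside its 5.11, 5.42 and 8.04 CPM in MEF it was at 0.0459, 0 and 0.339 in XEN ESC medium 1, 2 and 7, and at 0, 0 and 0.137 in XEN medium. It was at 0, 0.0232, 0 and 0.131 in iXEN ESC medium 1, 2, 6 and 9, and at 0, 0, 0.12 and 0.145 in XEN medium. The highest of the 14, XEN ESC medium 7, lay far below the lowest MEF value. The log2 fold change was -7.06 (SE 0.81, edgeR adjusted p = 0.000192) and -5.34 (SE 1.15, adjusted p = 0.022) for iXEN and XEN in ESC medium. In XEN medium it was -6.35 (SE 1.15, adjusted p = 0.00733) and -6.80 (SE 1.24, adjusted p = 0.00651). The call for XEN in ESC medium was lost without any 1 of the MEF libraries (adjusted p 0.0791 to 0.0897). The annotation lets Hoxd10 and Hoxd11 overlap, so some of their reads may have been left out or split.

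Between iXEN and XEN cells in the same medium, and between the media in the same cells, edgeR called no member. It called 0% of all genes too: of 12944 tested between the cell types when grown in ESC medium and 13263 when grown in XEN medium, of 13241 and 12920 between the media for XEN and iXEN, and of 14357 for the interaction. Of the members, 13, 16, 16, 12 and 24 had enough counts to be tested in these 5 fits. Unadjusted p was under 0.05 for 3, 2, 1, 4 and 10 of them. The lowest adjusted p was 0.157, 0.985, 0.8, 0.0969 and 0.221. DESeq2 called 5 of 30, 1 of 19, 1 of 33, 7 of 16 and 7 of 25 members to which it gave an adjusted p, where it called 3.66%, 0.961%, 0.539%, 11.9% and 3.43% of all such genes. These counts do not show that the groups are alike, and the spread between libraries of a group was wide.

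In ESC medium the lowest adjusted p between the cell types was that of Hoxa9, at 4.77, 1.03 and 3.91 CPM in XEN 1, 2 and 7 and 0.21, 0.232, 0.0461 and 0.131 in iXEN 1, 2, 6 and 9. The groups did not overlap, which held in this direction for 6.16% of all genes tested. The log2 fold change was -4.37 (SE 0.79), with adjusted p = 0.157 in edgeR and 1.19e-05 in DESeq2. DESeq2 also called Hoxb6, Hoxc4, Hoxc8 and Hoxd4 lower in iXEN, of which only Hoxd4 is at 0 in every iXEN library. Each was highest in XEN ESC medium 1, at 1.84, 3.99, 15 and 0.642 CPM, the library with the most fibroblast marker RNA. XEN 7 lay within the iXEN range for Hoxc4 (0.157 CPM) and Hoxc8 (0.104), and above it for Hoxb6 and Hoxd4.

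In iXEN cells the lowest adjusted p-values between the media were those of 2 Hoxc genes. Hoxc6 was at 0.294, 0.163, 0.369 and 0.163 CPM in iXEN ESC medium 1, 2, 6 and 9 and at 0.836, 10.8, 0.15 and 8.40 in XEN medium (log2 fold change 4.38, SE 1.21, edgeR adjusted p = 0.0969). Hoxc9 was at 1.47, 1.35, 3.74 and 1.63 CPM and at 8.89, 6.32, 3.16 and 23.2 (log2 fold change 2.38, SE 0.69, adjusted p = 0.11). Library 6 was not higher in XEN medium for either gene. Hoxc4 was at 0.0465 to 0.21 CPM in ESC medium and at 5.47, 5.51, 0.241 and 15.2 in XEN medium, against 5.57 to 7.98 in MEF. iXEN XEN medium 1, with Hoxc4 just under the MEF range, had fibroblast markers at 0.0369% of MEF. In XEN cells Hoxc8 alone had an unadjusted p under 0.05, with 15, 2.28 and 0.104 CPM in ESC medium for XEN 1, 2 and 7, and 0.367, 0.0825 and 0.0196 after XEN medium (log2 fold change -5.23, SE 1.90, adjusted p = 0.8). Its order followed the fibroblast marker levels of the ESC medium libraries, 17.6%, 0.751% and 0.0910% of MEF, whose part in it was not tested. For the interaction, Hoxa9 had a log2 value of 7.81 (SE 2.49, edgeR adjusted p = 0.236), and -0.06 (adjusted p = 0.994) without the 3 libraries with fibroblast collagen. Those libraries also held the highest Hoxa9 of their groups, at 4.77 CPM in XEN ESC medium 1 and 11.9 and 33.2 in iXEN XEN medium 2 and 9. Leaving them out thus lowers the value by the choice itself, and the part of fibroblast RNA in it was not tested.

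Genes that work with or on the Hox clusters were read from lists chosen with earlier results known. The TALE homeobox proteins (Pbx, Meis and Pknox) bind DNA together with Hox proteins. In iXEN cells in ESC medium 4 of 9 were lower and 2 higher than in MEF, where 25.9% and 20.8% of all genes were, the shares against which the counts of all lists in this comparison are to be read. Pknox2 was at 20.2 to 25.5 CPM in MEF and 0 to 1.46 in iXEN (log2 fold change -5.24, SE 0.92, edgeR adjusted p = 0.0019). Meis1 was at 37.1 to 49.2 CPM in MEF and 21.7 to 81.0 in the 14 XEN and iXEN libraries. In the other 3 comparisons with MEF, 1 to 3 of the 9 were lower and 1 higher.

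Polycomb subunits, which add and read the silencing mark on Hox chromatin, gave calls in both directions. Of 24, 8 were higher and 2 lower in iXEN cells in ESC medium (20.8% and 25.9% of all genes), and 10 higher and 4 lower in XEN cells in XEN medium (23% and 24.5%). In iXEN in XEN medium 4 were higher and 2 lower (17.7% and 14.9%), and in XEN in ESC medium none was higher and 1 lower (11.4% and 13.7%). Ezh2, the enzyme of the complex, named after its values were seen, was at 46, 53.1 and 41.0 CPM in MEF and 74.8 to 110 in iXEN ESC medium (log2 fold change 0.96, SE 0.20, edgeR adjusted p = 0.0044). It was at 166, 130 and 166 CPM in XEN XEN medium 1, 2 and 7 (log2 fold change 1.77, SE 0.19, adjusted p = 0.0013). In iXEN XEN medium 9 it was at 53.3, the lowest of the 14 but not below MEF. Any part of Ezh2 in the Hox levels was not tested. The reader protein gene Cbx7 was at 2.12 to 2.56 CPM in MEF and 51.7 to 66.8 in iXEN ESC medium (log2 fold change 4.68, SE 0.22, adjusted p = 1.6e-06). Phf19, another accessory subunit, was at 6.69 to 10.2 CPM in MEF and 0.0461 to 0.302 in iXEN (log2 fold change -5.30, SE 0.52, adjusted p = 8.5e-05). Of 13 genes of the opposing trithorax side, 6 were higher and 1 lower in iXEN in ESC medium, and 6 and 3 in XEN in XEN medium.

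Retinoic acid activates Hox genes in the embryo, and 8 of 15 tested genes of its pathway were lower and 4 higher in iXEN in ESC medium. Crabp1 was at 187 to 221 CPM in MEF and 0.139 to 0.252 in iXEN (log2 fold change -9.92, SE 0.27, edgeR adjusted p = 4.1e-07). Stra6, the retinol uptake receptor, was at 0.442 to 0.602 CPM in MEF and 120 to 383 in iXEN (log2 fold change 9, SE 0.57, adjusted p = 8.5e-06). Cyp26a1, which breaks retinoic acid down, was at 0 to 0.113 CPM in MEF and 34.9, 2.09, 355 and 17.6 in iXEN ESC medium 1, 2, 6 and 9 (log2 fold change 10.74, SE 2.33, adjusted p = 0.0056). Of 16 limb and body position factors outside the clusters, 13 were lower and 2 higher. Tbx4, a hindlimb factor, was at 17.8, 15.3 and 46.4 CPM in MEF and 0 to 0.184 in iXEN (log2 fold change -8.83, SE 0.85, adjusted p = 7.5e-05), and like Hoxd13 it was highest in MEF 3. Hand2, of the posterior limb bud, was at 10.6 to 21.1 CPM in MEF and 0 to 0.042 in iXEN (log2 fold change -9.59, SE 0.68, adjusted p = 1.4e-05). Of 11 other homeobox genes of mesenchyme 8 were lower and 1 higher, with Prrx1 at 602 to 784 CPM in MEF and 0.138 to 0.84 in iXEN (log2 fold change -10.54, SE 0.51, adjusted p = 2e-06).

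Of 15 genes flanking the clusters, 10 were tested in iXEN in ESC medium, with 4 lower (Skap2, Mtx2, Calcoco1 and Gm53) and 1 higher (Snx10), against 25.9% and 20.8% of all genes. Hibadh, beside Hoxa, was at 37.7 to 44.5 CPM in MEF and 20.6 to 59.1 in the 14 XEN and iXEN libraries. Lnp, beside Hoxd, was at 32.5 to 37.1 CPM in MEF and 14 to 41.4. Hibadh overlapped MEF in 3 of the 4 groups and Lnp in all 4, while Evx2, the homeobox gene next to Hoxd13, was at 0.113 to 0.972 CPM in MEF and at 0 in all 14. In iXEN in XEN medium none of 10 flanking genes was called. Hoxa11os, the antisense transcript of Hoxa11, was at 8.05 to 16.6 CPM in MEF, 2.34 in XEN ESC medium 1, 4.03 in iXEN XEN medium 2 and 0.0448 or less in the other 12. Without the strand setting, its reads and those of Hoxa11 cannot be told apart.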

How the data were processed

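Per the submitters' processing notes, reads of 17 libraries (Trizol, Illumina TruSeq mRNA kit) were handled with FastQC 0.11.3, Trimmomatic 0.32, TopHat2 2.0.12 and HTSeq 0.6.1 on mm9. No source used here gives their order, parameters, annotation or strand setting, so counts of overlapping and antisense genes are uncertain. Hoxa3, Hoxb3 and Hoxd3 each span neighbouring members in the annotation at hand. The deposited files hold whole-number read counts per gene. The counter's own lines (20.8% to 33.1% of each file) entered neither library sizes nor tests.

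Only the libraries compared entered each of the 9 edgeR 4.0.16 fits (R 4.3.3): filterByExpr (minimum count 10, minimum total 15), TMM scaling, two-sided quasi-likelihood tests, Benjamini-Hochberg adjustment over all genes tested, called under 0.05. Standard errors were derived from each log2 fold change and its F statistic. CPM use TMM factors over all 17 libraries. Folds against 0 counts are bounds at 3 counts over the group, and ratios with 1 to 3 counts have exact 95% counting intervals. Both cover counting error only. The fitting script was tested on simulated data. Alternatives were RLE scaling, no filter, DESeq2 1.42.0, 1 fit over 17 libraries, a replicate block and leaving out libraries.

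The members and gene lists were chosen with earlier results of these data known. Values in every library are given for the 2 members of each cluster highest in MEF, the 2 highest in any XEN or iXEN library, and at most 3 called genes of each other list. Other genes were named after their values were seen. The values of 1 member and 1 cofactor gene are not reported here, and both count in the totals. The samples are termed biological replicates in the design text, but no source states that cultures were separate, so p-values measure only the spread between libraries. No pair of replicates agreed within sampling noise (chi-square 43.4 to 1219 per degree of freedom, 21 pairs). The labels give no batch or date. Between the media, deviations of XEN libraries from their group means correlated by 0.240, 0.377 and 0.635 for equal title numbers 1, 2 and 7. XEN ESC medium 2 correlated more with XEN XEN medium 1 (0.428), so equal numbers were not always the closest. For iXEN the values were 0.144, 0.181, 0.123 and -0.0344 for equal numbers 1, 2, 6 and 9. No mm9 annotation was used, so genes carry no coordinates other than the RefSeq promoter windows.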

Additional observations from a re-analysis of the deposited data

Results flagged for a closer look

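In groups of 4, a library was marked when its distance to the nearest of the others was an unusually large part of the group's range (Dixon's test). The mark was sought for all members and cluster sums, and only 18 of these are counted here. Of their 36 gene or cluster and group pairs, 11 were marked. Chance marks about 1 in 20 where values follow a normal distribution, which CPM with many zeros do not. Of the 11, 8 were iXEN XEN medium 9. Several of these genes were taken because they were highest in that library, and the cluster sums hold them, so the number marked is no measure against chance. There Hoxb3 was at 4.63 CPM (0 to 0.228 in the other 3), Hoxb7 at 9.47 (0 to 0.0738), Hoxb9 at 4.58 (0 to 0.0492) and Hoxc8 at 34.0 (0.12 to 2.12). Hoxd8 was at 44.5 CPM (0.038 to 6.59) and Hoxd9 at 26.7 (0.15 to 0.836). The Hoxb cluster summed to 37.9 CPM (1.40 to 7.41) and the Hoxd cluster to 82.1 (0.481 to 8.76). In ESC medium iXEN 6 was marked for Hoxb9 at 2.72 CPM (0 to 0.098), for Hoxc9 at 3.74 (1.35 to 1.63) and for Hoxb7 at 0.0461 (0 in the other 3), the last being 1 count.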

How the results depend on the processing

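The number of members called for iXEN in ESC medium against MEF was 31 and stayed between 27 and 31 under every alternative run, and that for XEN in XEN medium was 26 (20 to 30). For XEN in ESC medium it was 13 and became 8 in 1 fit over all 17 libraries, 8 with a replicate block, 20 without the libraries with fibroblast collagen, and 0 to 20 leaving out 1 library (0, 1 and 2 without MEF 1, 2 and 3, 20 without XEN 1). For iXEN in XEN medium it was 9 and became 0 with a replicate block, 30 without the collagen libraries, and 6 to 20 leaving out 1 library (20 without iXEN 9). For the 5 comparisons without MEF it was 0 leaving out any 1 library. The share of all genes called is not given for fits that leave out libraries, so those numbers are no result about the members alone. DESeq2 gave 5 and 1 between the cell types in ESC and XEN medium, 1 and 7 between the media in XEN and iXEN cells, and 7 for the interaction, and 1 fit over all 17 libraries gave 1 in iXEN cells (Hoxc4, log2 fold change 5.51, adjusted p = 0.047). The replicate block changed no call between the media in XEN cells, where libraries of equal number were not always the closest. For MEF and the lines no source ties equal numbers to each other, and a call lost there is no sign of a weaker effect. Of 700 values of single genes under alternatives, 626 kept direction and side of the threshold, 62 lost the call, 4 gained it and 8 changed sign. Of these 8, 7 were Hoxb4 for XEN in XEN medium: -0.0158 with RLE scaling, -0.00403 with DESeq2, -0.33 with a replicate block and -0.22 to 0.33 leaving out 1 library (-0.08 without MEF 1, -0.03 without MEF 3, -0.04 without XEN 1, -0.22 without XEN 7). The other was Hoxa9 in the interaction (-0.0557 without the collagen libraries). In 1 fit over all 17 libraries the calls of Hoxb9, Hoxc9, Hoxd8, Ezh2 and Suz12 for iXEN in ESC medium, of Hoxa9 and Hoxd8 for XEN in XEN medium and of Hoxa9 and Hoxa10 for XEN in ESC medium were lost. The cause of these changes was not tested. DESeq2 gave no adjusted p for Hoxb9 in iXEN in ESC medium. Without MEF, 15 to 27 of the 39 members had too few counts to be tested between the lines, which limits what depth can show there.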

Other observations

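Of the members with few counts everywhere, Hoxb1 and Hoxd1 were tested in no comparison. Hoxc12 was tested only in XEN in XEN medium against MEF (log2 fold change 0.79, SE 0.84, edgeR adjusted p = 0.464). Hoxb13 was tested only in the interaction (log2 value -3.44, SE 1.79, edgeR adjusted p = 0.378). Hoxb1, which marks a segment of the hindbrain, had no count in 15 of the 17 libraries and reached 0.0579 CPM in iXEN XEN medium 9 and 0.0246 in iXEN XEN medium 2. Hoxd1 was at 0.116 CPM or less in every library. Hoxb13, a gene of the prostate and tail end, was at 0.177 to 0.301 CPM in MEF and at 1 CPM in XEN XEN medium 1. Hoxc12, next to Hoxc13, was at 0.116 to 0.677 CPM in MEF and at 0.955, 0.193 and 0.53 in XEN XEN medium 1, 2 and 7, overlapping MEF, and Hoxc11 on its other side was at 0.0245 CPM or less in all 14 XEN and iXEN libraries. The noncoding RNA genes Hotair, in Hoxc, and Hottip, beside Hoxa13, were at 0.232 CPM or less in every library.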
